A study of Mus musculus with 13 samples.

Results

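The Hnrnp and Srsf genes encode RNA-binding proteins that steer pre-mRNA splicing. They were taken as every gene of the filtered count table whose symbol starts with Hnrnp or Srsf, with pseudogene symbols ending in -ps left out. This gave 31 of 17280 genes, of which 20 were Hnrnp and 11 were Srsf. Microglia were sorted as CD45lo CD11b+ cells from male C57BL/6J mice, and their RNA was sequenced cell by cell with CEL-Seq2, on 13 plates with 192 wells each. The study's methods name the hypothalamus as the source, whereas the sample labels list several dissected brain regions. No age is given in the labels. Cell names carry a number of weeks whose meaning the files do not state, with 9 on plates 6 to 9, 14 on plates 4 and 5, 24 on plates 10 to 12, both 14 and 24 on plate 13, 16 on plates 2 and 3, and 4 or 10 on plate 1. Plates 1 and 13 carry more than 1 number, and on the other plates these weeks and the plate cannot be told apart. Control mice received standard chow, and the other mice received a high-fat diet (HFD, 60% fat) for 1 day, 3 days, 1 week, 4 weeks, 9 weeks or 16 weeks. Diet, length of HFD and replicate identifier were read from the deposited table of wells, and an identifier need not be 1 mouse. The treatment text of the sample labels names only the 3-day HFD, for every plate, so the other lengths rest on the table of wells.

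Heterogeneous nuclear ribonucleoproteins (hnRNPs) coat nascent transcripts, and many of them repress the use of nearby splice sites. Serine/arginine-rich splicing factors (SR proteins) bind exonic enhancers through RNA recognition motifs and recruit the spliceosome through their arginine- and serine-rich domain. Several genes of both families adjust their own output by splicing a poison exon into their transcript, which sends it to nonsense-mediated decay.

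The promoter stretches of 5 of the 6 members with the highest control level are shown because these genes carried most of the values reported here. The stretch of Srsf11 was shorter than the others and is not shown. Sequences are from RefSeq on GRCm38.p6, upstream of the first start listed there and free of exon sequence, written 5′ to 3′ on the strand of the gene. Capitals mark the GC box GGGCGG, the CCAAT box CCAAT, the TATA box TATAAA, the cAMP response element core TGACGT and the ETS core CCGGAAG on either strand. In Srsf5, 1 GC box and 1 ETS core overlap. The stretch of Hnrnpk lies inside the gene as GENCODE draws it, between exons, since that annotation starts the gene farther upstream.
Hnrnpa2b1, chr6:51469895-51470094, minus strand: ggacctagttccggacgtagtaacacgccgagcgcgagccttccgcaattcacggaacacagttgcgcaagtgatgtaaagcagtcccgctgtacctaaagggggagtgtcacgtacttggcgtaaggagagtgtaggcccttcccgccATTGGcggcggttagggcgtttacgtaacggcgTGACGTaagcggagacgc
Srsf5, chr12:80945397-80945498, plus strand: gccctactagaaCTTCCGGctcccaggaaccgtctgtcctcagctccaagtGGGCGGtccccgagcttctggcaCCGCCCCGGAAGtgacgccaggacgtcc
Srsf2, chr11:116853095-116853294, minus strand: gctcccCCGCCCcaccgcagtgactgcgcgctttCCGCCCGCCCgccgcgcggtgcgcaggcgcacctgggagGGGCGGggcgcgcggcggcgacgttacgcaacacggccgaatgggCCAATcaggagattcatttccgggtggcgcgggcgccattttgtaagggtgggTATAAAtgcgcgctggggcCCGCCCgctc
Hnrnph1, chr11:50376790-50376989, plus strand: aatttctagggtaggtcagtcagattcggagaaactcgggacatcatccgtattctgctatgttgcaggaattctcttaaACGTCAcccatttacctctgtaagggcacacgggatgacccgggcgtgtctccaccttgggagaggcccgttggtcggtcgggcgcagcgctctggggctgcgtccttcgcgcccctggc
Hnrnpk, chr13:58402143-58402247, minus strand: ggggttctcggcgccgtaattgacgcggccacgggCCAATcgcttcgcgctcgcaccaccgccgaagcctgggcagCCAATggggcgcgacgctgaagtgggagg

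A RefSeq promoter was found for 29 of the 31 members, all but Hnrnpll and Hnrnpul2. Srsf promoters had a higher median GC content than Hnrnp promoters, with overlapping ranges of 60% to 77.5% and 49% to 80%. Within 200 bases upstream of the start, the median GC content was 67% in members and 63% in the 1795 genes of the diet comparisons with a promoter. It was 67% in the 11 Srsf promoters and 61.25% in the 18 Hnrnp promoters, below that of those genes. The median number of CpG dinucleotides was 21 in members and 15 in those genes. The GC box occurred in 21 members (72.4%), in 60.7% of those genes and in 31.3% of all 27020 promoters. It occurred in 10 of 11 Srsf promoters (90.9%) and in 11 of 18 Hnrnp promoters (61.1%), the latter close to the share of those genes. The CCAAT box occurred in 14 members (48.3%), in 30.9% of those genes and in 30.0% of all promoters. The 2 families differed the other way here, with a CCAAT box in 11 of 18 Hnrnp promoters and in 3 of 11 Srsf promoters. The TATA box occurred in 2 members (6.90%), Srsf2 and Srsf3, in 4.01% of those genes and in 10.6% of all promoters. The cAMP response element core occurred in 6 members (20.7%), against 11.03% of those genes, and the ETS core in 4 members (13.8%), against 12.98%. A match is a description of these letters and was not tested.

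A well was kept as a cell where it held at least 1500 transcripts over the 17280 genes, which left 1617 of 2496 wells (64.8%). A cell held 1510 to 19948 transcripts, with a median of 2840. Cells of 1 replicate and diet on 1 plate were added up, and sums of at least 5 cells were used, which gave 68 sums of 22774 to 219199 transcripts. The 1-week HFD sum of replicate M14 on plate 13 fell short of 5 cells and was left out. The level of a gene is given as CPM, the transcripts of the gene divided by all transcripts of its sum and scaled to parts per 1000000. The same 192 well barcodes were used on every plate, so a shared barcode does not mark a shared cell. The sums held the labelled cell type, with all 10 microglial markers found and a summed microglial level of 24343 to 41537 CPM. Markers of other cell types were low in most sums, and 3 replicates of plates 4 and 5 stood apart. S100a9, the only neutrophil marker of 6 that the table lists, stood at 12948 CPM in the 4-week HFD sum of replicate M21 on plate 5 and at 829 CPM in the M21 sum on plate 4, against a median of 0. Monocyte markers, 4 of 6 listed, summed to 1108 CPM in the 1-week HFD sum of replicate M23 and to 686 CPM in the 3-day HFD sum of replicate M24, both on plate 5, against a median of 23.1 CPM. Border-associated macrophage markers, 6 of 7 listed, were highest in the M24 sum on plate 4, with 423 CPM against a median of 25.6 CPM. Several values at 3 days, 1 week and 4 weeks are therefore also given without these replicates.

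Control cells formed 28 sums of 19 replicates on 12 plates (722 cells). The 1-day HFD had 6 sums of 6 replicates on plates 6 and 8, and the 3-day HFD 6 sums of 4 replicates on plates 4, 5 and 13. The 1-week HFD had 7 sums of 5 replicates on plates 4, 5, 7, 9 and 13. The 4-week HFD had 5 sums of 3 replicates on plates 1, 4 and 5, and the 9-week HFD 6 sums of 2 replicates on plates 10, 11 and 12. The 16-week HFD had 10 sums of 5 replicates on plates 2, 3, 10, 11, 12 and 13. Plate 5 held no control sum, and plate 4 held 1 control sum of 7 cells. Because diets lay on different plates, HFD and control were compared within plates. Of 44 replicates, 16 lay on more than 1 plate, so the p-values measure the spread between sums, which may in part be technical.

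In control microglia 6 members stood above 300 CPM on average. A CEL-Seq2 tag comes from the 3′ end of a transcript, so CPM does not scale with transcript length. Levels are set side by side as captured, and their order need not be that of the transcripts in the cells. Hnrnpa2b1 had the highest level, with 613 CPM ± 179 (SD, n = 28 control sums) and a range of 124 to 973 CPM. Its protein hnRNP A2/B1 acts in splicing and in the sorting and transport of RNA. Srsf5 followed with 480 CPM ± 134 (n = 28) and a range of 250 to 761 CPM, and Srsf11, an SR-related protein, with 478 CPM ± 128 and a range of 279 to 820 CPM. Srsf2, whose protein SC35 marks nuclear speckles, had 419 CPM ± 155 and the widest relative range of these 6 genes, from 67.0 to 743 CPM. This place rests on the lowest value, that of the single control sum of 7 cells on plate 4. Hnrnph1, which binds runs of G, had 398 CPM ± 109, between 143 and 645 CPM. Hnrnpk, which binds C-rich stretches, had 326 CPM ± 108, between 124 and 648 CPM. No step in this order was large, since each of the 30 pairs of neighbours among the 31 members differed by less than the SD of the higher one. The largest step, between Hnrnpa2b1 and Srsf5, was 133 CPM. The 6 genes together held 47.1% of all member transcripts.

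The remaining members spanned a wide range. Srsf6 averaged 284 CPM, Srsf7, an SR protein that also takes part in mRNA export, 220 CPM, and Hnrnpdl 217 CPM. Hnrnpu, a nuclear scaffold protein, averaged 217 CPM, Hnrnpc, which binds U-rich tracts, 188 CPM, and Srsf3, a partner of Srsf7 in mRNA export, 178 CPM. The members at the other end were rarely captured. Hnrnpll, known for splicing of Ptprc in lymphocytes, averaged 36.4 CPM, Srsf4 33.6 CPM and Hnrnph2 30.6 CPM. Hnrnpa1 averaged 19.5 CPM and was at 0 in 13 of the 28 control sums. Its level is uncertain, because Hnrnpa1 has many processed copies in the genome that can share its reads. Srsf12 was at 0 in 27 of 28 control sums, with 4 transcripts in all cells. The plot of member levels shows this order.

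**Figure D1:**
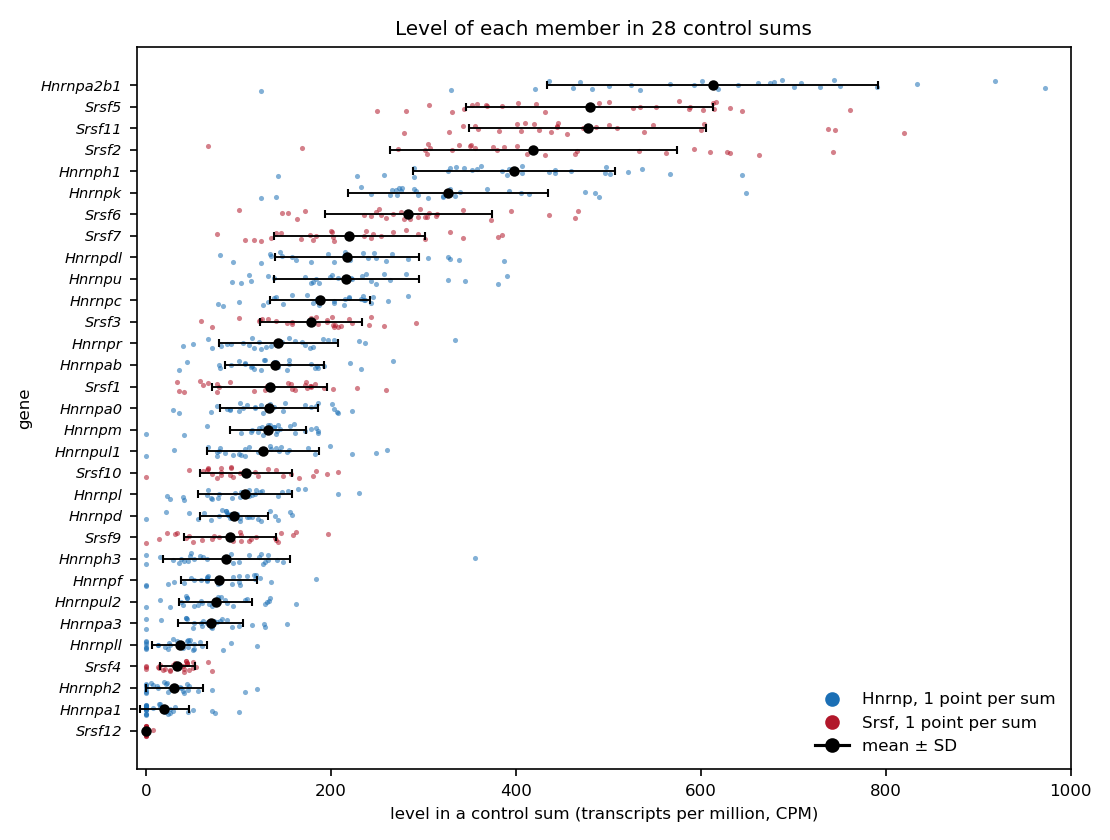
Level of each of the 31 members in CPM (x axis, linear) in the 28 control sums, with genes ordered by mean level (y axis), 1 point per sum and the mean ± SD in black. Hnrnpa2b1 stands at 613 CPM and the spread of each gene overlaps that of its neighbours.

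The spread between control sums exceeded that of counting alone in most members. Over the 28 control sums the coefficient of variation (CV, the SD as a percentage of the mean) had a median of 39.8% over members and lay above the CV from counting alone in 24 of 31. Srsf2 stood out with a CV of 37.1% against 20.7% from counting. Hnrnpa2b1 had a CV of 29.2% against 17.1%, and Srsf5 27.8% against 19.3%. The CV of Hnrnph3 was 79.5% against 45.4%, and its highest control value, 356 CPM in replicate M1 on plate 10, lay far above its mean of 86.9 CPM. By contrast, the CV of Hnrnpc was 28.8% against 30.9% from counting, and that of Hnrnpm, an hnRNP that regulates alternative exons, 31.5% against 36.9%.

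The GENCODE M21 annotation places the 6 highest members at chr6:51460932-51469894 (Hnrnpa2b1), chr12:80945504-80950507 (Srsf5), chr3:158010473-158036639 (Srsf11), chr11:116849901-116853094 (Srsf2), chr11:50376990-50386528 (Hnrnph1) and chr13:58391142-58403343 (Hnrnpk) of GRCm38, all as protein-coding genes. It lists a transcript marked for nonsense-mediated decay in 19 of 31 members (61.3%), against 732 of 2231 genes of the diet comparisons (32.8%). The share was 9 of 11 (81.8%) in Srsf genes and 10 of 20 (50%) in Hnrnp genes. A retained-intron transcript is listed in 22 members (71.0%), against 69.4% of those genes. Counts per gene do not tell these transcripts from the coding ones. The strand setting of the counting is not given in the sources used here, so reads of Srsf2 cannot be told apart from those of Mettl23 and Mfsd11, which overlap it on the opposite strand, nor reads of Hnrnpk from those of Rmi1. Hnrnpk also holds Mir7-1 and Srsf11 overlaps Gm43362 on the same strand.

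At equal depth, the spread of member transcripts over single cells lay slightly above that of counting. Each cell was thinned to 1000 transcripts, so that cells of unequal depth could be compared. A cell then held 5.72 member transcripts on average, with the 5th and 95th percentiles at 2 and 10 and a maximum of 15. The variance was 1.15 times the mean over all 1617 cells, where a Poisson count gives a ratio near unity, and within a sum the ratio had a median of 1.09. With so few member transcripts per cell, counting makes up most of this spread, so the ratio says little about how far cells differ. Only 9 of 1617 cells (0.557%) held no member transcript, against 0.328% under a Poisson count. A cell held transcripts of 5 different members at the median and of 11 at most. Without thinning, a cell held 18.0 member transcripts on average and transcripts of 10.9 members. Hnrnpa2b1 was captured in 81.6% of cells (47.5% after thinning) and Srsf5 in 71.2% (36.4%). Srsf12 was captured in 0.247% of cells.

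**Figure D2:**
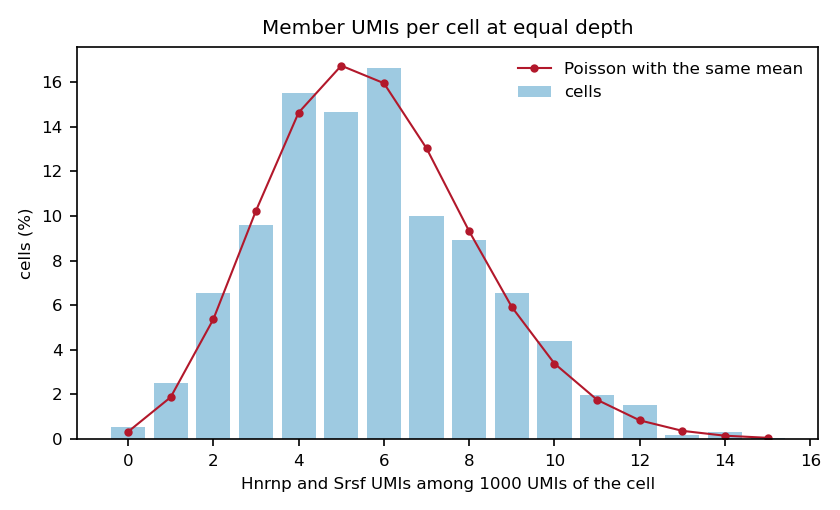
Percentage of the 1617 cells (y axis) by the number of member transcripts among 1000 transcripts of the cell (x axis), as bars, with the percentages of a Poisson count of the same mean as points. The bars peak close to the mean of 5.72 and are slightly wider than the Poisson points.

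The members' summed share of all transcripts differed more between plates than, on average, between HFD and control on the same plate. Means of the diets over all their plates ran from 0.477% at 3 days to 0.657% at 9 weeks, but diets lay on different plates. Over the 68 sums the share was 0.558% ± 0.0856 (SD), from 0.407% to 0.822%, and over the 28 control sums 0.565% ± 0.0758. Hnrnp genes held 0.323% ± 0.0497 and Srsf genes 0.242% ± 0.0421 of the control transcripts (n = 28). The share is a score over chosen genes and is described without a test. Plates 4, 5 and 13 together were low, with 0.468% ± 0.0438 over 22 sums and no sum above 0.550%. Plates 10 to 12 were high, with 0.634% ± 0.0644 over 24 sums and no sum under 0.518%. The mean of the other plates lay between, with 0.566% ± 0.0427 over 22 sums from 0.501% to 0.647%. The 1-week HFD did not follow this order, since its single sum on plate 13 was at 0.550%, above those on plate 7 (0.530%) and plate 9 (0.501%). In control cells the same order held, with 0.442% ± 0.0289 in the 5 sums of plates 4 and 13, 0.557% ± 0.0402 in the 11 sums of the middle plates and 0.624% ± 0.0398 in the 12 sums of plates 10 to 12. The 5 control sums of plates 4 and 13 did not overlap any other control sum, with 0.477% as their highest value and 0.512% as the lowest elsewhere. These groups of plates were formed with the shares known, and the control sums are among the 68. The order in control cells is therefore not an independent result. The SD between control sums of 1 plate was 0.0375 percentage points, close to the counting SD of 0.0313, whereas the means of the 6 plates with 3 or more control sums had an SD of 0.0746.

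**Figure D3:**
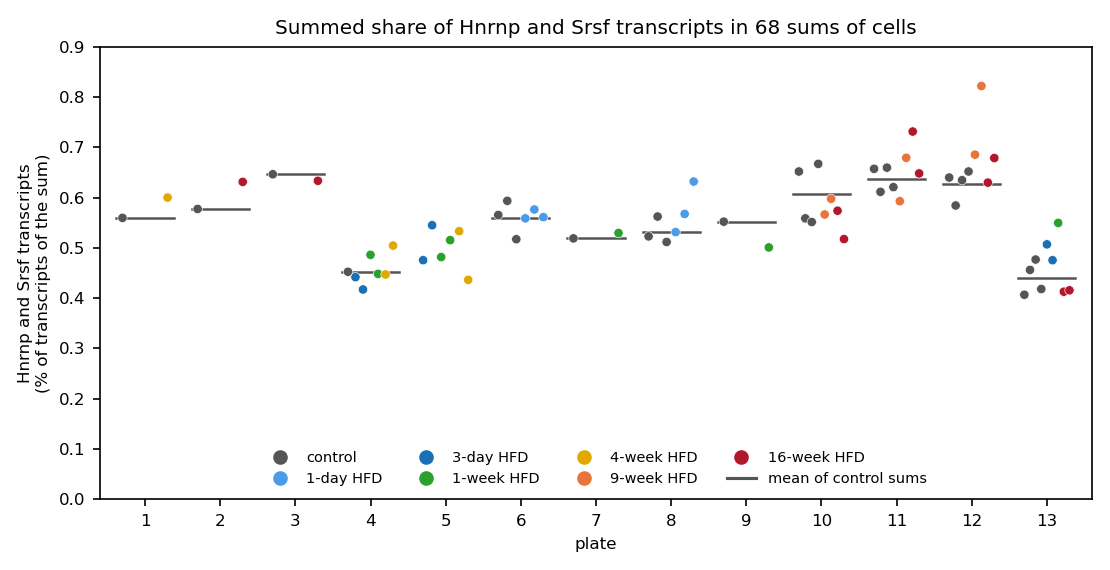
Summed share of Hnrnp and Srsf transcripts (y axis, percent of the transcripts of a sum) on each of the 13 plates (x axis), 1 point per sum coloured by diet, with the mean of the control sums of a plate as a line. Sums of plates 4, 5 and 13 stay at or under 0.550% and those of plates 10 to 12 at or above 0.518%, while the 1-week HFD sum of plate 13 lies above the 1-week sums of plates 7 and 9.

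Other values moved with the plates. In control sums the genes left out of the filtered table held 33.4% ± 3.30 of all transcripts on plates 4 and 13 (n = 5), against 19.8% on plates 10 to 12, 21.1% on plates 1 to 3 and 20.1% on plates 6 to 9. Nuclear-retained RNAs, of which 2 of 3 listed were in the table (Malat1 and Neat1), summed to 7791 CPM ± 2025 on plates 4 and 13 and to 17375 CPM ± 2091 on plates 10 to 12. They were higher still on plates 1 to 3 and 6 to 9, with 28096 and 26109 CPM. Immediate early genes summed to 889 CPM on plates 4 and 13, against 1593, 3811 and 1876 CPM on these sets of plates. Neuron markers, 5 of 7 listed, summed to 0 to 249 CPM on plates 4 and 13 and to 0 to 119 CPM on the other plates. Border-associated macrophage markers, 6 of 7 listed, ranged from 25.4 to 140 CPM on plates 4 and 13 and from 0 to 88.5 CPM elsewhere. Monocyte markers averaged 72.8 CPM on plates 4 and 13 (23.4 to 124 CPM), against 23.5 CPM on plates 10 to 12, 23.7 CPM on plates 1 to 3 and 11.01 CPM on plates 6 to 9, with no value above 60.2 CPM there. Of 4 lists of other splicing genes, 2 were low on plates 4 and 13 as well. Other SR and SR-related proteins summed to 4099 CPM ± 389 there, against 5369 to 6250 CPM on the other sets of plates, and core spliceosome genes to 4067 CPM ± 459, against 4817 to 5257 CPM. The SR list did not overlap the other sets, whereas the core list reached 4563 CPM there and started at 4325 CPM on plates 6 to 9 and at 4548 CPM on plates 1 to 3. SR protein kinases and import factors summed to 1210 CPM, within the 1151 to 1284 CPM of the other sets. Other hnRNP and RNA-binding regulators summed to 8209 CPM ± 805, against 8940 CPM ± 946 on plates 10 to 12, 9557 CPM ± 360 on plates 1 to 3 and 9180 CPM ± 889 on plates 6 to 9, with overlapping ranges between plates 4 and 13 and each of these sets. Within plate 13 the control share was 0.418% and 0.477% in the 2 sums whose cell names carry 14 weeks and 0.407% and 0.456% in the 2 with 24 weeks. The median depth of a cell averaged 3529 transcripts on plates 4 and 13, 3553 on plates 10 to 12, 2805 on plates 1 to 3 and 2333 on plates 6 to 9. The part of these values in the members' shares was not tested.

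Among single members Srsf2 differed between plates in control cells. In edgeR's quasi-likelihood test over all plates, 273 of 3330 genes had an adjusted p under 0.05 (8.2% of genes tested), and among members 1 of 25 did. Srsf2 (adjusted p = 0.00196) was at 533, 466, 743 and 610 CPM in the 4 control sums of plate 11 and at 628, 562, 631 and 412 CPM on plate 12. It was at 307, 355 and 169 CPM on plate 8, at 401, 351 and 375 CPM on plate 6, and at 67.0 CPM in the control sum of 7 cells on plate 4. Plate 13, low like plate 4 in the summed share, held Srsf2 at 304, 463, 431 and 663 CPM, a mean exceeded only by those of plates 11 and 12. The sums of plates 6 and 8 thus lay below all sums of plates 11 and 12. Plates 10 to 12 held the same 4 control identifiers, and 3 of these 4 had their lowest Srsf2 on plate 10, with 593, 302, 379 and 330 CPM there. The adjusted p of Srsf2 stayed under 0.05 when any 1 control replicate was left out (0.00109 to 0.0328), without plates 4 and 13 (0.0233) and by DESeq2 (0.0217), which called 4.47% of all genes and no other member and gave 10.2% of all genes and 1 of 25 members an unadjusted p under 0.05.

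The other high members did not pass this test. Hnrnpk had an adjusted p of 0.0825 in edgeR (unadjusted p = 0.00763), with 474, 485, 405 and 648 CPM on plate 10 and 414, 243, 271 and 294 CPM on plate 11. All 4 of the shared control identifiers had their highest Hnrnpk on plate 10. With the 6 plates of 3 or more control sums alone, its adjusted p was 0.0317. Hnrnpa2b1 had an adjusted p of 0.0971 in edgeR (unadjusted p = 0.00942). It was at 421, 535, 330 and 124 CPM on plate 13 and at 918 and 833 CPM in the single control sums of plates 3 and 9. Its adjusted p was 0.0195 without control replicate M1 of plates 10 to 12. In all, 6 of 25 members had an unadjusted p under 0.05, against 18.1% of all genes: Srsf2, Hnrnpk, Hnrnpa2b1, Srsf1, Srsf5 and Hnrnpdl. Plates also fall into 3 sets by the genes their tables list, which are plates 1 to 3, plates 6 to 9 and the rest. Between these sets edgeR called 196 of 4982 genes (3.93%) and 0 of 27 members, of which 5 had an unadjusted p under 0.05, as did 16.6% of all genes. DESeq2 called 2.83% of all genes and 0 members in this comparison, with 2 members at an unadjusted p under 0.05, as had 11.4% of all genes.

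**Figure D4:**
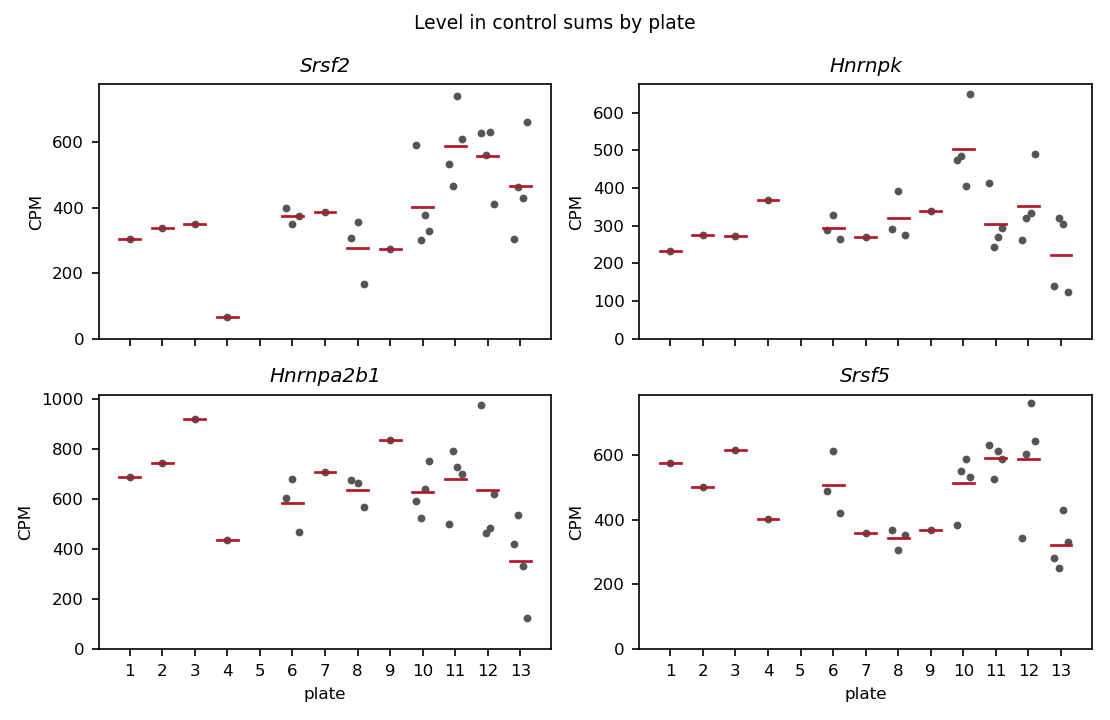
Level in CPM (y axis, from 0) of Srsf2, Hnrnpk, Hnrnpa2b1 and Srsf5 in the control sums of each plate (x axis), 1 grey point per sum and the plate mean as a red line. Srsf2 is highest on plates 11 and 12, and Hnrnpk on plate 10.

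Within plates, the mean difference in the members' summed share between HFD and control was between 0.0055 and 0.0332 percentage points at the 6 lengths. On the 2 plates of the 1-day HFD it was 0.571% against 0.546% in control, higher by 0.0067 and 0.0447 percentage points, and 5 of 6 sums lay above the control mean of their plate. The mean difference of 0.0257 became 0.0119 without M16 of plate 8 and 0.0153 without control replicate M9 of plate 6. At 3 days the mean difference was 0.0144 percentage points, with plate 4 lower by 0.0230 and plate 13 higher by 0.0518. It was 0.00826 without M24, 0.00651 without M17, 0.0223 without M18 and 0.00894 without control replicate M11. Without the control sum of 7 cells on plate 4, only the value of plate 13 remains. At 1 week the difference averaged 0.0211 over 4 plates and ran from -0.0513 on plate 9 to 0.110 on plate 13. It was -0.00862 without replicate M13, the only 1-week sum used on plate 13, 0.0258 without M23 and 0.0452 without M4 or control replicate M3, which leaves out plate 9. At 4 weeks it was 0.0319 over 2 plates, and 0.0175 without M21. Other settings also moved these means. As a mean of the share per cell the difference was 0.0124 at 1 week and 0.0105 at 4 weeks, and with all common genes in the denominator it was 0.0346 at 3 days. With at least 10 cells per sum it was 0.0447 at 3 days, and with wells of at least 1000 transcripts 0.0123 at 1 week.

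The 9-week HFD differences also varied between plates. The difference was -0.0253 percentage points on plate 10, -0.00127 on plate 11 and 0.126 on plate 12. The sum of replicate M8 on plate 12 had the highest share of all, 0.822%, and the mean difference of 0.0332 became -0.0092 without M8 and 0.0756 without M7, the other 9-week replicate. It was 0.0201 without control replicate M2. At 16 weeks the difference averaged 0.0055 over 6 plates, from -0.0616 to 0.0539, with 5 of 10 sums above the control mean of their plate. It was -0.00207 without replicate M5 of plates 10 to 12 and 0.0131 without M6. It was -0.00197 without L4 or control replicate L3, which leaves out plates 2 and 3, and -0.00105, 0.00977 and 0.00927 without control replicates M2, M1 and M4 of plates 10 to 12. With all common genes in the denominator the difference was 0.0191 at 9 weeks and 0.00345 at 16 weeks. At 16 weeks it was also -0.000151 with at least 10 cells per sum and 0.00259 without Hnrnpa2b1.

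No member passed the test between HFD and control in the fit across all genes. The fit compared 2336 genes with enough counts, among them 22 members, with the plate as a block. edgeR called 0 genes at each of the 6 lengths (0% of genes tested), and so 0 members. At an unadjusted p under 0.05 it had 2 of 22 members at 1 day (4.88% of all genes), 2 at 3 days (4.67%), 0 at 1 week (4.2%), 2 at 4 weeks (4.11%), 1 at 9 weeks (6.34%) and 0 at 16 weeks (4.75%). edgeR also called 0 members at each length without M21, M23 and M24, and with plate 13 split by the weeks in the cell names. DESeq2 and limma likewise called 0 members at each length, and of all genes none or 1 (0.0428%). At an unadjusted p under 0.05, DESeq2 had 2 members at 1 day (4.67% of all genes), 1 at 3 days (3.98%), 0 at 1 week (3.98%), 2 at 4 weeks (4.02%), 1 at 9 weeks (6.12%) and 0 at 16 weeks (4.92%). For limma these were 2 (5.69%), 2 (5.39%), 0 (6.04%), 2 (5.05%), 2 (6.16%) and 0 (5.48%). The 9 members not tested for low counts were Hnrnph3, Hnrnpf, Hnrnpul2, Hnrnpa3, Hnrnpll, Srsf4, Hnrnph2, Hnrnpa1 and Srsf12. The log2 fold change was positive in 13 of 22 members at 1 day (50.6% of all genes), 11 at 3 days (49.8%), 10 at 1 week (48.4%), 13 at 4 weeks (51%), 13 at 9 weeks (50%) and 14 at 16 weeks (48.7%). The median log2 fold change of the members lay between -0.01 and 0.08, with the median of all genes between -0.01 and 0.01.

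The 6 highest members had the tightest intervals. Over all 6 lengths and with all replicates in, every 95% interval of their fold changes lay between 0.622-fold and 1.70-fold. Without M21, M23 and M24 the log2 fold change at 1 week went from -0.23 to -0.37 in Hnrnpk and from 0.01 to -0.06 in Hnrnpa2b1. Hnrnpa2b1 was at 349 to 855 CPM in the 10 sums of the 16-week HFD and 124 to 973 CPM in the 28 control sums, and its fold change within plates was 1.04 (95% interval 0.881 to 1.22). At 3 days it was at 379 to 610 CPM, with a fold change of 1.07 (0.831 to 1.39). The 6 comparisons share control sums, so their values are not independent.

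**Figure D5:**
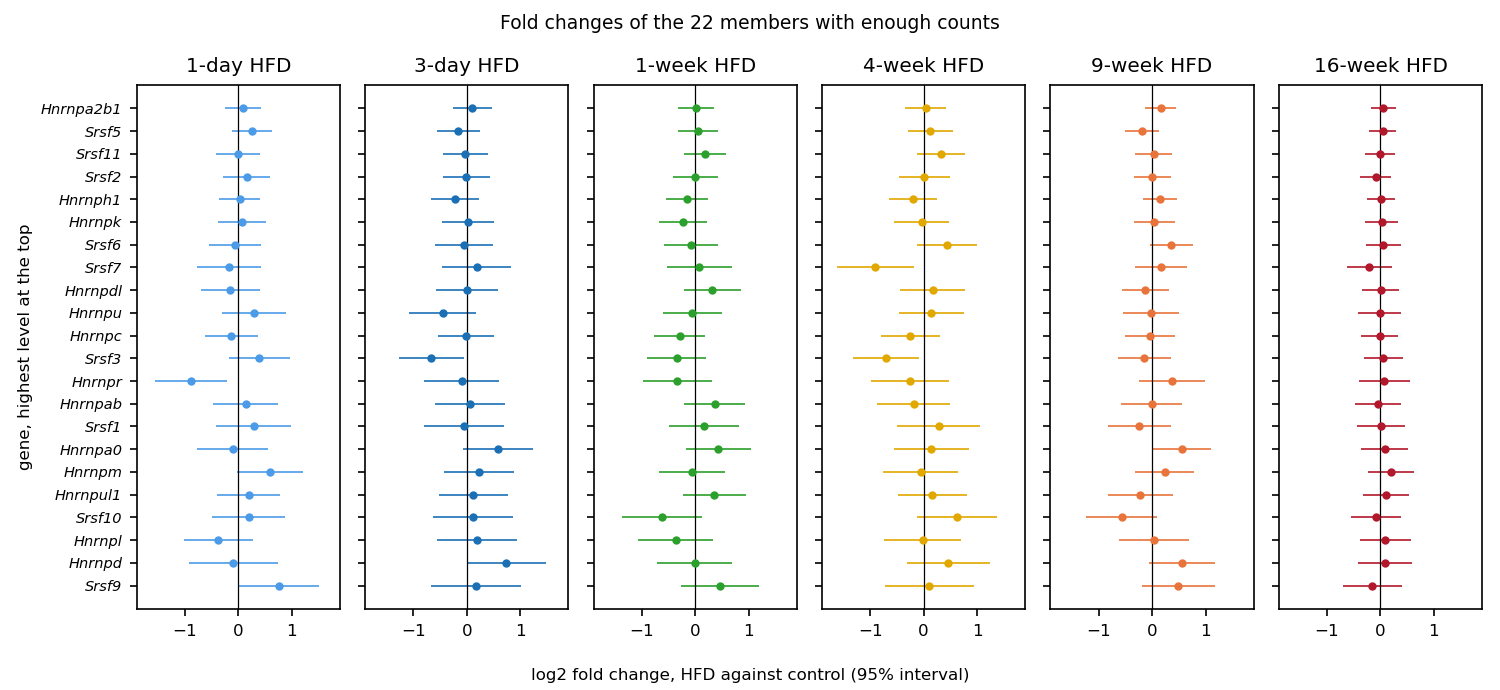
Log2 fold change (x axis) of the 22 tested members (y axis, highest control level at the top) for HFD of 6 lengths against control within plates, as points with 95% intervals from edgeR. Values lie on both sides of 0 at each length, and intervals are narrowest at 16 weeks, where the median SE is 0.20.

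The largest shifts at 1 day were in Hnrnpr and Srsf9. Hnrnpr, an hnRNP close to Syncrip, was at 114, 33.6 and 102 CPM in the 1-day HFD sums of plate 6 and at 334, 197 and 203 CPM in the control sums there. On plate 8 it was at 97.3, 152 and 140 CPM against 230, 123 and 169 CPM. The groups did not overlap on plate 6 and did overlap on plate 8, and 0 of 6 HFD sums lay above the control mean of their plate. The log2 fold change of Hnrnpr was -0.89 ± 0.34 (SE), with an adjusted p of 0.762 in edgeR (unadjusted p = 0.00825). Srsf9, an SR protein that regulates alternative splice sites, was at 85.3, 134 and 220 CPM against 22.3, 197 and 31.3 CPM on plate 6, and at 195, 124 and 191 CPM against 92.0, 159 and 46.0 CPM on plate 8. All 6 HFD sums lay above the control mean of their plate, while the groups overlapped on both plates. Its log2 fold change was 0.76 ± 0.37, with an adjusted p of 0.980 in edgeR.

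At 3 days Srsf3 had the smallest p among members. It was at 67.8 and 95.4 CPM in the 3-day HFD sums of plate 13, against 210, 71.3, 203 and 207 CPM in control, and at 134 and 123 CPM against 101 CPM on plate 4. The 2 plates thus went opposite ways, although the control value of plate 4 is that of 1 sum of 7 cells. Its log2 fold change was -0.66 ± 0.31, with an adjusted p of 0.989 in edgeR, and the unadjusted p went from 0.0315 to 0.0619 without M21, M23 and M24. Hnrnpd, whose protein AUF1 promotes decay of mRNAs with AU-rich elements, had a log2 fold change of 0.74 ± 0.37 (adjusted p = 0.989, unadjusted p = 0.0434), with 2 of 4 sums above the control mean of their plate. Without M21, M23 and M24 it was 0.65 (unadjusted p = 0.121 in edgeR), and the smallest p at 3 days was then that of Hnrnpa0 (0.0523). The 3-day value of Hnrnph1 depended on the plate block. Its 3-day HFD sums lay between 198 and 237 CPM and the control sums of all plates between 143 and 645 CPM. A fit without plates gave a log2 fold change of -0.86 (adjusted p = 0.00386 in edgeR). On plate 13 it was at 217 and 223 CPM against 257, 143, 228 and 290 CPM in control. On plate 4 it was at 237 and 199 CPM, below the 335 CPM of the control sum of 7 cells, and 0 of the 4 HFD sums lay above the control mean of their plate. With the plate as a block its log2 fold change was -0.22 ± 0.22 (adjusted p = 0.989 in edgeR). It was -0.33 without M24 and the other 2 replicates that stood apart, -0.35 with plate 13 split by weeks, -0.08 with at least 10 cells per sum, which drops the control of plate 4, and 0.0023 without a filter on low counts.

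At 1 week the smallest p among members was that of Srsf10, an SR protein known to repress splicing when dephosphorylated. It was at 25.3 and 52.6 CPM against 67.0 CPM on plate 4, at 61.3 against 65.7 CPM on plate 7 and at 32.5 against 81.1 CPM on plate 9. On plate 13 it was at 64.7 CPM against 93.5, 0, 76.1 and 166 CPM. None of the 5 HFD sums lay above the control mean of its plate. The log2 fold change of Srsf10 was -0.62 ± 0.38, with an adjusted p of 0.999 in edgeR (unadjusted p = 0.0921). Without M21, M23 and M24 its unadjusted p was 0.1395 at a log2 fold change of -0.62, and the smallest p at 1 week was that of Srsf3 (0.0812), with a log2 fold change of -0.52. With plate 13 split by weeks, Srsf10 had a log2 fold change of -0.75 (unadjusted p = 0.0465, adjusted p = 0.999 in edgeR).

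At 4 weeks Srsf7 and Srsf3 had the smallest p. Srsf7 was at 160 CPM against 281 CPM in control on plate 1, at 24.1 and 191 CPM against 201 CPM on plate 4, and at 93.6 and 39.2 CPM on plate 5, which held no control sum. All 3 sums with a control on their plate lay below it. Its log2 fold change was -0.90 ± 0.36 (adjusted p = 0.997 in edgeR, unadjusted p = 0.0121) and -1.13 without M21 (adjusted p = 0.855). The log2 fold change of Srsf3 was -0.71 ± 0.31 and -0.53 without M21, with unadjusted p of 0.0241 and 0.121 in edgeR.

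At 9 weeks the smallest p was that of Hnrnpa0, an hnRNP that binds AU-rich elements. It was at 169 and 270 CPM on plate 11 against 87.1, 91.1, 28.6 and 90.3 CPM, so the groups did not overlap there. On plate 10 it was at 128 and 118 CPM against 178, 105, 118 and 203 CPM, and on plate 12 at 224 and 202 CPM against 223, 100, 149 and 206 CPM, with overlap on both. The log2 fold change of Hnrnpa0 was 0.55 ± 0.27 (adjusted p = 0.775 in edgeR, unadjusted p = 0.0422). At 16 weeks, the length with the most sums, the smallest unadjusted p was 0.317, for Srsf7 in edgeR, with a log2 fold change of -0.21 ± 0.20. All 22 log2 fold changes at 16 weeks lay between -0.21 and 0.20.

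The wider splicing machinery also held no gene past the test in the diet comparisons. A list of 90 other splicing genes held other SR and SR-related proteins, SR protein kinases and import factors, other hnRNP and RNA-binding regulators, and core spliceosome genes. Of these, 55 were tested, and edgeR called 0 in either direction at each length. At an unadjusted p under 0.05 it had 0 higher and 5 lower at 1 day (4.88% of all genes in either direction), 2 and 2 at 3 days (4.67%), 1 and 1 at 1 week (4.2%), 1 and 0 at 4 weeks (4.11%), 0 and 2 at 9 weeks (6.34%), and 1 and 2 at 16 weeks (4.75%). The smallest p at 1 day was that of Sf3b2, a subunit of the U2 snRNP, with a log2 fold change of -0.85 (adjusted p = 0.762). Between plates in control cells, edgeR called 4 of 61 (6.56%, against 8.2% of all genes): the splicing factors Rbm25 (adjusted p = 0.00104), Srrm2 (3.78e-05) and Tra2a (0.000981) and the RNA helicase Ddx5 (0.0036). Srrm2, a large speckle protein, was at 1458, 1441 and 1274 CPM in the control sums of plates 1, 2 and 3, at 603 CPM on plate 4 and at a mean of 572 CPM on plate 13. Its highest plates were not those of Srsf2. Between the 3 sets of plates edgeR called 1 of 73, Srrm2 (adjusted p = 0.00683).

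The shares of the 2 families were also set beside each other across control sums. Pearson's r between the Hnrnp share and the Srsf share was 0.36 over the 28 control sums and -0.16 over the 22 control sums of plates with 3 or more, each share centred on its plate. These points share plates, libraries and the total they are divided by, and no test was made. Among the 5 non-member genes whose log2(CPM + 10), centred per plate, followed the summed share most closely over these 22 sums were Ccng2 (r = 0.66), Zfp706 (0.65), the purinergic receptor gene P2ry12 (0.64) and Sft2d1 (0.64), out of 2313 genes compared.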

How the data were processed

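Single sorted microglia were profiled by CEL-Seq2. Per the study's methods, the authors ran snakePipes, in which Cutadapt took off barcodes, FastQC checked the reads, STAR aligned them (build GRCm38/mm10) and featureCounts assigned them to genes. The deposited plate tables give an estimated count per gene and well, which is the number of distinct UMIs corrected for chance repeats, not normalized. Every value was a whole number of UMIs after this correction within 0.001. Genes with many transcripts per cell are limited by that correction. A filtered table, without 447 genes that held 22.3% of all transcripts, gave the 17280 genes. Of its columns, 437 equalled the plate tables (largest difference 0) and 406 were not used.

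Wells with at least 1500 transcripts were summed per replicate, diet and plate (at least 5 cells), and the estimated counts were rounded. Diets were fitted with edgeR 4.0.16 (TMM, filterByExpr, quasi-likelihood test, Benjamini-Hochberg, threshold 0.05, plate as a block, 68 sums, 49 residual degrees of freedom) in R 4.3.3, and plates in control sums with the same test. SE and 95% intervals come from the information matrix of the fit. DESeq2 1.42.0 and limma 3.58.1 were alternatives. The script was tested on simulated data. Python 3.11.15, numpy 2.4.6, pandas 2.3.3, scipy 1.17.1 and matplotlib 3.10.9 did the rest. The 7-day and 1-week entries of the table of wells were taken as 1 length. The CV and SD from counting cover counting error only.

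Members and lists were chosen with earlier results of these data known. Values were given for the 6 members of highest control level, every member called and the member with the smallest p per length, and the 5 non-members most like the summed share were to be named, of which 1 is not reported here. Other members were chosen for naming after their values were seen.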

Additional observations from a re-analysis of the deposited data

Results flagged for a closer look

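Of 140 groups of 4 to 10 sums examined over 14 measures, 11 held a sum far from the others for the range of its group. A group was 1 HFD length over all its plates, or the control sums of 1 plate. Chance alone gives about 1 in 20 such groups, a rate that does not hold for HFD groups where plates differ. Among the HFD groups, Hnrnpa2b1 reached 854.7 CPM in the 4-week HFD sum of replicate L2 on plate 1, with 500.3 CPM as the next value. Hnrnpk reached 319.2 CPM in the same sum, with 280.7 CPM as the next value. This was the only 4-week sum on plate 1, and the others lay on plates 4 and 5. The control sum held Hnrnpa2b1 at 688 CPM on plate 1 and at 436 CPM on plate 4, and the part of the plate was not tested. Srsf5 reached 706 CPM in the 1-day HFD sum of replicate M6 on plate 6, with 512 CPM next. Hnrnpk stood at 524.5 CPM in the 16-week HFD sum of replicate M5 on plate 11, with 357.3 CPM next. Hnrnpr stood at 335.8 CPM in the 9-week HFD sum of replicate M7 on plate 12, with 150 CPM next. Srsf10 stood at 165.3 CPM in the 1-day HFD sum of replicate M16 on plate 8, with 117.7 CPM next, and at 131.1 CPM in the 1-week HFD sum of replicate M22 on plate 5, with 64.68 CPM next.

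Among control sums of 1 plate, Srsf11 stood at 737.4 CPM in replicate M4 and Srsf10 at 207.5 CPM in replicate M1 of plate 10, with 509.8 and 118 CPM as the next values. Srsf3 was at 71.29 CPM in replicate M12 of plate 13, with 202.9 CPM as the next value above it. Hnrnpa0 was at 28.56 CPM in replicate M3 of plate 11, with 87.06 CPM as the next value above it.

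For Srsf10, all 3 sums of the 4-week HFD lay above the mean of the control sums of their plate, while all 5 of the 1-week HFD and all 6 of the 9-week HFD lay below it. These were the 2 contrasts found in a search over 14 measures and all pairs of lengths, for which no rate of chance was worked out. Sums of plate 4, at 4 weeks and at 1 week, were set against a single control sum of 7 cells. The difference between these lengths was not tested.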

How the results depend on the processing

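No paired analysis was possible because no plate holds both an HFD and a control sum of the same replicate identifier. The plate served as a block instead. The counts of genes called, 0 at each length, moved under some alternatives. Without the plate block edgeR called 3 genes at 1 day, 29 at 3 days, 16 at 1 week, 23 at 4 weeks, 0 at 9 weeks and 1 at 16 weeks. Without a filter on low counts it called 6 at 3 days, 6 at 1 week, 12 at 4 weeks, 4 at 9 weeks and 4 at 16 weeks. A separate fit per length called 2 at 1 week and 1 at 9 weeks, limma with a replicate correlation 1 at 1 week and 1 at 16 weeks, and DESeq2 1 at 9 weeks. Sums of 1 diet on 1 plate gave 3 at 1 week, 8 at 4 weeks and 1 at 16 weeks. Without plates 4 and 5, an alternative chosen after seeing the data, 1 gene was called at 3 days, 9 at 1 week, 2 at 4 weeks and 2 at 16 weeks. Also chosen after seeing the data, leaving out M21, M23 and M24 together gave 3 at 1 week and 4 at 4 weeks, and splitting plate 13 by the weeks in the cell names gave 0 at each length. The only member among all these calls was Hnrnph1, at 3 days without the plate block (log2 fold change -0.86). Leaving out 1 replicate at a time gave 0 to 0 calls at 1 day, 3 days and 9 weeks, 0 to 1 at 1 week, 0 to 4 at 4 weeks and 0 to 1 at 16 weeks, none of them a member.

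Between plates in control cells, DESeq2 called 149 genes and the plates with at least 3 control sums, added after seeing the data, gave 107 of 1451. Leaving out 1 replicate gave 219 to 276, and leaving out 1 plate gave 135 to 212 between the sets of plates. Srsf2 was called under each alternative run for the plates. Hnrnpa2b1 was also called without a filter on low counts. The within-plate difference in summed share, HFD minus control, lay between 0.0119 and 0.0371 percentage points at 1 day when 1 replicate was left out, 0.00651 and 0.0518 at 3 days, -0.00862 and 0.0452 at 1 week, 0.0175 and 0.0463 at 4 weeks, -0.0092 and 0.0756 at 9 weeks, and -0.00207 and 0.0131 at 16 weeks. Of the fold changes of named members under the alternatives, 488 kept their direction, 63 changed sign, none of them called, and 1 passed the threshold. Causes were not tested. A sum held a median of 342 member transcripts.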
